A study of Arabidopsis thaliana with 16 samples.

Results

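A set of 10 genes of Arabidopsis thaliana was followed through both RNA fractions of shoots and roots grown with and without phosphate (Pi). LOX2 (AT3G45140), AOS (AT5G42650), AOC1 to AOC4 (AT3G25760, AT3G25770, AT3G25780 and AT1G13280), OPR1 (AT1G76680) and OPR3 (AT2G06050) encode enzymes or enzyme relatives of jasmonate synthesis, and VSP1 (AT5G24780) and VSP2 (AT5G24770) encode the vegetative storage proteins. The 10 genes were taken by locus from the table of protein-coding transcripts, in which the values of all transcripts of a locus were summed, and they were 10 of 27206 coding genes in that table. RNA came from 10-day-old wild-type Col-0 seedlings grown on Pi-deficient medium (P–, in which 0.65 mM K2SO4 replaced the Pi salt) or on Pi-sufficient medium (P+, with 1.25 mM KH2PO4). Shoots and roots were collected apart, and each RNA sample was split into a fraction held by oligo(dT) beads, poly(A)+, and a fraction left in the supernatant and depleted of ribosomal RNA, poly(A)–. The 8 groups were P– shoots, P+ shoots, P– roots and P+ roots in each of the 2 fractions, with 2 biological replicates each, 16 libraries in all. No mutant, transgene or hormone treatment was part of these libraries, and each library came from whole shoots or whole roots of many seedlings.

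Jasmonates are lipid hormones of wounding, herbivory and fertility. In the plastid, 13-lipoxygenases such as LOX2 oxidize linolenic acid, allene oxide synthase (AOS) and the allene oxide cyclases (AOC) turn the product into the cyclopentenone OPDA, and the peroxisomal reductase OPR3 and rounds of beta-oxidation complete jasmonic acid. The isoleucine conjugate of jasmonic acid binds the receptor COI1, which leads to the breakdown of JAZ repressors and frees MYC transcription factors, and VSP1 and VSP2 are classic leaf markers of that response whose products belong to a family of acid phosphatases.

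Values are FPKM, mapped fragments scaled to transcript length and to the size of the library, as the authors deposited them. The table holds no read counts, and precision was taken from the 2 replicates of a group. The 8 poly(A)+ libraries summed to between 937841 and 1072070 FPKM over coding genes, with 19950 to 21007 genes above 0, and the poly(A)– libraries to between 780084 and 920728 FPKM, with 15872 to 20237 genes above 0. Replicates of the poly(A)+ fraction differed by an SD of 0.445 to 0.864 log2 units over genes, and those of the poly(A)– fraction by 0.896 to 1.25. All 6 Pi starvation markers (such as SPX1 and SPX3) rose in P– poly(A)+ libraries of both tissues. Their summed level was 610 to 647 FPKM in P– shoots against 78.0 to 80.7 FPKM in P+ shoots, and 2468 to 3686 FPKM in P– roots against 66.2 to 86.9 FPKM in P+ roots. The 6 shoot markers, all genes of photosynthesis, summed to at least 14280 FPKM in every shoot poly(A)+ library, to 193 to 205 FPKM in P– roots and to 365 to 717 FPKM in P+ roots. The 6 root markers, such as the endodermal gene CASP1 and the root hair gene COBL9, summed to 649 to 969 FPKM in roots. In shoots their sum was 25.6 to 38.0 FPKM under P– and 2.08 to 3.42 FPKM under P+, and 5 of the 6 root markers rose in P– shoots. The median level of a root marker in shoots was 3.77% of its root level under P– (range 2.39 to 6.57%) and 0.236% under P+ (range 0 to 1.49%), and this value is given again beside the results that it moves with.

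The loci lie on chromosomes 1, 2, 3 and 5 (build TAIR10.1). AOC1 (chr3:9403779-9405338), AOC2 (chr3:9406669-9408071) and AOC3 (chr3:9409160-9411090) stand in tandem on the + strand, and AOC4 lies alone (chr1:4547388-4548894, + strand). VSP2 (chr5:8500468-8502224) and VSP1 (chr5:8507590-8509201) are neighbours on the - strand. OPR1 (chr1:28776626-28778837, + strand) overlaps the next gene, OPR2, by 216 bases on the same strand. LOX2 (chr3:16525245-16529352, + strand), AOS (chr5:17097564-17099595, - strand) and OPR3 (chr2:2359114-2362375, - strand) overlap no other annotated gene. Coding sequences of AOC1 and AOC2 are 90.3% identical, those of VSP1 and VSP2 90.4%, and those of OPR1 and OPR2 91.7%, with identical stretches of up to 47, 54 and 114 bases. How the authors' counting divided reads among such copies is uncertain, and values of AOC1 to AOC3, of the VSP pair and of OPR1 carry that limit.

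The 250 bases upstream of 4 genes are shown because the paired VSP genes took opposite places in shoots and roots, and because LOX2 and AOS hold the only matches in that window to 2 motifs searched on both strands. These are the P1BS motif GNATATNC, to which the Pi starvation regulator PHR1 binds, and the G-box CACGTG, to which MYC factors bind. Each sequence runs 5′ to 3′ on the gene's own strand up to the base before the annotated gene start, was read from the RefSeq TAIR10.1 genome, and carries matches in capitals.
VSP2, chr5:8502225-8502474, - strand: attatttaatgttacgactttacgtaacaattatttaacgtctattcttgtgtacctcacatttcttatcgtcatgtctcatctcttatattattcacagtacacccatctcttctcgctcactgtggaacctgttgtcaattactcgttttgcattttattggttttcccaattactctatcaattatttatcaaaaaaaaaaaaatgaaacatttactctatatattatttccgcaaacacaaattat
VSP1, chr5:8509202-8509451, - strand: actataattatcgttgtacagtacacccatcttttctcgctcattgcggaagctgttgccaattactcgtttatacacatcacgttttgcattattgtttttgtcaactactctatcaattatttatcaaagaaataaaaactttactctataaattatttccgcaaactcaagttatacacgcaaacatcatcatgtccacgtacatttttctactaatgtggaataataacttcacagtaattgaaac
LOX2, chr3:16524995-16525244, + strand: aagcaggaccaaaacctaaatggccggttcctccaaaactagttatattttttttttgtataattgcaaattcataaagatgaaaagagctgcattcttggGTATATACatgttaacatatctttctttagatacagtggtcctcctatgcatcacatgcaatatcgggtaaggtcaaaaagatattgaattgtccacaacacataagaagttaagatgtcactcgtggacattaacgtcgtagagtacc
AOS, chr5:17099596-17099845, - strand: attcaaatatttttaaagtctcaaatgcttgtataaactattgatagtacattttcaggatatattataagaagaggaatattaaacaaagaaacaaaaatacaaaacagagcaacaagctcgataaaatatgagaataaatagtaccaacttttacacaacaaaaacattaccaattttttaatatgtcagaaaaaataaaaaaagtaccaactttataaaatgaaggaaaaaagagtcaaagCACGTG
The P1BS match of LOX2 lay 149 to 142 bases upstream, and 5.45% of 26718 windows of this length held the motif. The G-box of AOS filled the 6 bases just before the gene start, with 6.58% of windows holding one. Within 1000 bases, P1BS matches stood upstream of LOX2, AOC4 and VSP2 (20.3% of all windows), and G-boxes upstream of AOS and OPR1 (14.9%). VSP2 held a pair of P1BS matches, 836 to 829 and 824 to 817 bases upstream. A match is a description of the letters only.

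**Figure D1:**
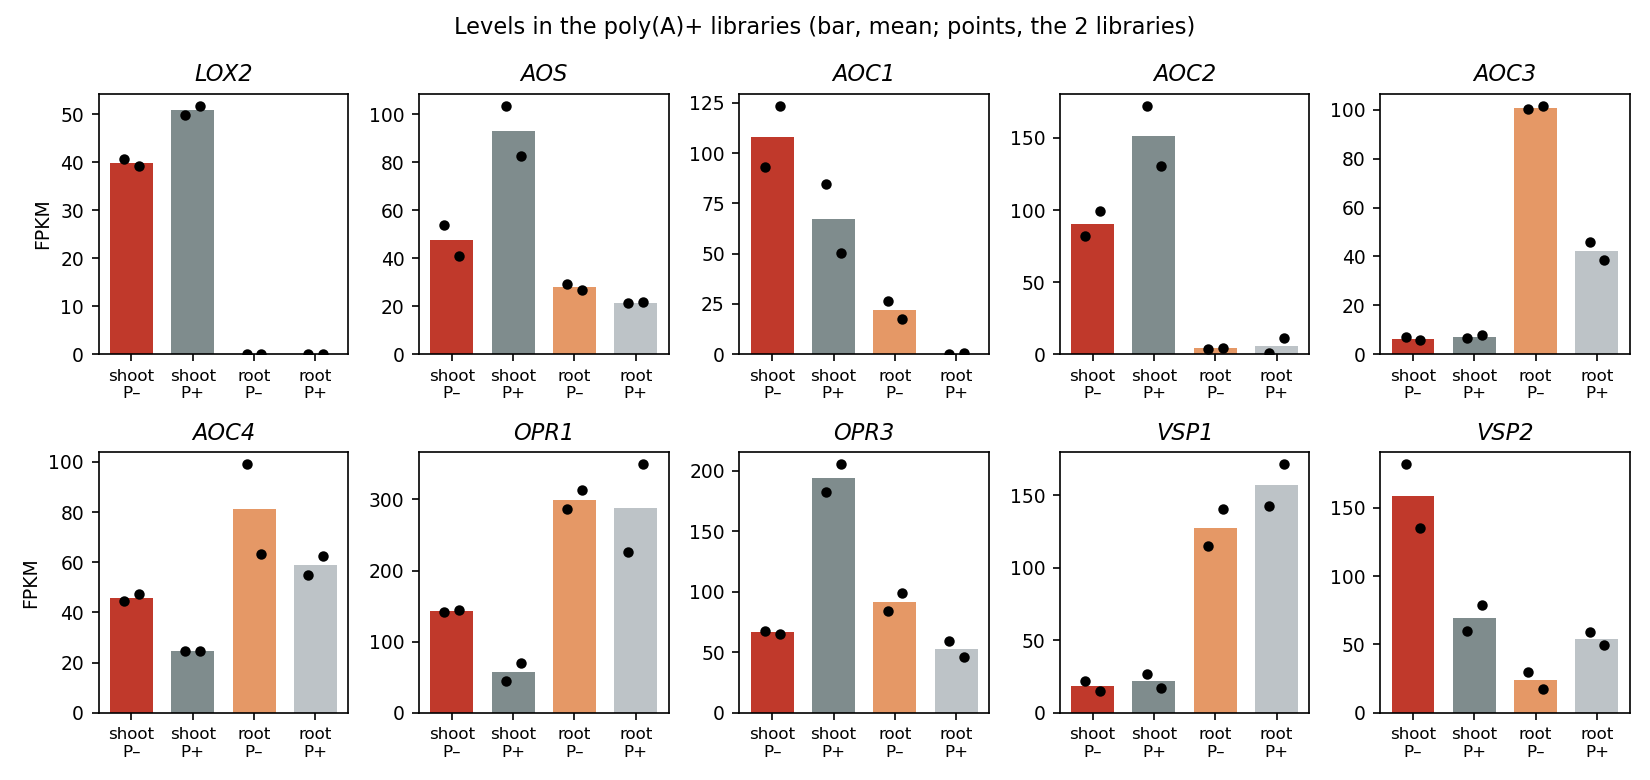
FPKM of the 10 genes in the 8 poly(A)+ libraries, with points for libraries beside their group means, and P– left of P+ in each tissue. LOX2 sat between 39.1 and 51.7 FPKM in shoots and at or below 0.158 FPKM in roots, and AOC1 was at or below 0.418 FPKM in P+ roots alone.

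How the 10 genes responded to P– was asked first in the poly(A)+ fraction, with 1 limma fit over all 19743 genes that averaged at least 1 FPKM, on the log2 of FPKM plus 1. A gene was called at a Benjamini-Hochberg adjusted p under 0.05 over all genes of the fit. In shoots, OPR1 rose and OPR3 fell. These 2 of 10 genes stood beside 8.35% of all genes called (5.09% higher, 3.26% lower). In roots, AOC1 and AOC3 rose, 2 of 10 genes beside 4.45% of all genes (2.47% higher, 1.98% lower). The median log2 change of the 10 genes was -0.18 in shoots, where the median of all genes was 0.14, and 0.28 in roots, where that of all genes was 0.07. By the thresholds the study used (a 2-fold change with an unadjusted p under 0.05), VSP2 joined them in each tissue, which made 3 of 10 genes beside 15.3% of all genes in shoots and 3 of 10 beside 12.9% in roots. The response to P– differed between the tissues for AOC1, OPR3 and VSP2, 3 of 10 genes where 3.56% of all genes were called in the test of the difference itself (1.91% with the higher response in shoots, 1.64% with the lower). Each of these 3 calls was lost without any 1 of the 4 shoot libraries and without 1 (AOC1, OPR3) or either (VSP2) of the P– root libraries, with adjusted p of up to 0.160. The thresholds of the study gave 6 of 10 genes there beside 19.8% of all genes.

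LOX2, the 13-lipoxygenase of leaf chloroplasts, was a shoot transcript. Its poly(A)+ level was 40.7 and 39.1 FPKM in P– shoots against 49.9 and 51.7 FPKM in P+ shoots. In P– roots it was 0.0807 and 0 FPKM, and in P+ roots it was 0 and 0.158 FPKM. Both P– shoot libraries were below both P+ shoot libraries, and the root libraries overlapped near 0. Neither difference passed the test (log2 change -0.34, adjusted p = 0.488 in shoots). Between tissues, LOX2 was higher in shoots than in roots by 5.30 log2 units under P– and 5.59 under P+, values that depend on the 1 FPKM added because the root libraries were listed at or near 0.

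AOS, the cytochrome P450 that makes the allene oxide, was lower in P– shoots, with 54.0 and 40.8 FPKM, than in P+ shoots, with 103.4 and 82.7 FPKM. All 4 libraries kept to that order, but the change of -0.96 log2 units (SE 0.25) gave an adjusted p of 0.0518. In roots, AOS stood at 29.4 and 26.7 FPKM under P– and at 21.1 and 22.0 FPKM under P+, the opposite order, with a log2 change of 0.36 (adjusted p = 0.434). The shoot response minus the root response was -1.33 (SE 0.36, adjusted p = 0.0824), which did not pass the test. AOS was higher in shoots than in roots in both media, by 0.72 log2 units under P– (adjusted p = 0.0454) and by 2.05 under P+ (adjusted p = 2.02e-04). The call under P– was lost without any 1 of the 4 shoot or 2 P– root libraries (0.53 to 0.92, highest adjusted p = 0.266).

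The 4 cyclase genes divided the tissues among them. AOC1 had 92.9 and 123.4 FPKM in P– shoots against 84.6 and 50.3 FPKM in P+ shoots. In roots it had 26.7 and 17.5 FPKM under P–, against 0 and 0.418 FPKM under P+. AOC1 was thus near or at 0 in both P+ root libraries and well above it in both P– root libraries and had the largest P– change of the 10 genes in either tissue. The root change was 4.25 log2 units (SE 0.36, adjusted p = 0.000605, 19.0-fold on the scale with 1 FPKM added). Adding 0.1 or 5 FPKM in place of 1 gave 6.58 or 2.36 log2 units, so the size of the fold is set by that choice, while the call held under both. With roots fitted alone, the adjusted p was 0.112. The change in shoots, 0.71 log2 units (SE 0.36, adjusted p = 0.260), did not pass the test, and the shoot response was smaller than the root response by 3.55 log2 units (SE 0.51, adjusted p = 0.0143).

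AOC2, the tandem neighbour of AOC1, went the other way in shoots, with 81.6 and 99.6 FPKM under P– and 172.2 and 130.3 FPKM under P+. The groups did not overlap, yet the log2 change of -0.73 (SE 0.75) did not pass the test (adjusted p = 0.591), and its SE was the widest of the 10 genes. In roots, AOC2 had 3.62 and 4.41 FPKM under P– and 0.576 and 10.9 FPKM under P+. Both P– root values fell between the P+ values. Leaving out the P+ root library with 10.9 FPKM gave a root change of 1.67 log2 units (adjusted p = 0.0136), and leaving out the other P+ root library gave -1.26.

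AOC3, like AOC4, was lower in shoots than in roots. It stood at 100.2 and 101.6 FPKM in P– roots and at 46.0 and 38.5 FPKM in P+ roots, a rise of 1.24 log2 units (SE 0.25, adjusted p = 0.0292). The call was lost when roots were fitted alone (adjusted p = 0.228) and when any library of the 8 other than a P+ root library was left out (highest adjusted p = 0.142). In shoots AOC3 had 6.91 and 5.80 FPKM under P– against 6.82 and 7.68 FPKM under P+, 2 overlapping groups (log2 change -0.17, adjusted p = 0.723). Root markers in shoots were higher under P–. When the median root share was taken off the shoot libraries, a setting chosen after the data were seen, the AOC3 change was -1.21 log2 units. That setting takes off 3.77% of the root level under P– and 0.236% under P+, so part of this change is set by the subtraction. Its adjusted p in the limma fit, 0.0386, treats the share as known. Single markers ran from 2.39 to 6.57% under P–. The shoot response minus the root response was -1.41 as deposited (SE 0.35, adjusted p = 0.0658).

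AOC4 had 44.5 and 47.3 FPKM in P– shoots against 24.6 and 24.5 FPKM in P+ shoots, 2 groups well apart, with a log2 change of 0.88 (SE 0.27, adjusted p = 0.0813). With shoots fitted alone the adjusted p was 0.0277. In roots it had 99.0 and 63.4 FPKM under P– and 55.1 and 62.4 FPKM under P+, where the lower P– library lay next to the higher P+ library (log2 change 0.43, adjusted p = 0.387). Under P+, AOC1 and AOC2 were higher in shoots than in roots by 5.80 and 5.12 log2 units, and AOC3 and AOC4 were lower by 2.39 and 1.22 log2 units. All 4 of these differences passed the test, as did the corresponding 4 under P–. The P– difference of AOC4 was -0.78 log2 units (adjusted p = 0.0443), and its call was lost without any 1 of the 4 shoot libraries or 1 of the P– root libraries (-1.09 to -0.46, highest adjusted p = 0.242).

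OPR3, the reductase that acts on the jasmonate precursor OPDA, fell in P– shoots. It had 67.8 and 65.4 FPKM there against 182.5 and 205.1 FPKM in P+ shoots, a change of -1.52 log2 units (SE 0.24, adjusted p = 0.00852, 0.348-fold). Both P– shoot libraries lay close together and well below either P+ library. In roots OPR3 had 84.1 and 98.9 FPKM under P– and 59.1 and 46.4 FPKM under P+, again without overlap but in the opposite order (log2 change 0.79, SE 0.24, adjusted p = 0.105). The shoot response minus the root response was -2.31 log2 units (SE 0.34, adjusted p = 0.0143). Under P+ OPR3 was higher in shoots than in roots by 1.86 log2 units (adjusted p = 2.52e-04), and under P– the difference was -0.45 (SE 0.24, adjusted p = 0.162). The call in shoots was lost when any 1 of the 4 shoot libraries was left out (highest adjusted p = 0.0988), with changes between -1.61 and -1.44.

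OPR3 was listed with 3 transcripts. The first, AT2G06050.1, carried 84.4% of the gene's level in P– shoots and 88.8% in P+ shoots, and stood at 56.3 and 56.2 FPKM under P– against 168.7 and 175.6 FPKM under P+. In roots the same transcript was at 34.6 and 45.4 FPKM under P– and 30.8 and 23.2 FPKM under P+. The second, AT2G06050.2, was at 48.2 and 34.4 FPKM in P– roots against 13.2 and 15.1 FPKM in P+ roots, so that most of the added OPR3 level of P– roots was listed under it. Division of reads among transcripts of 1 gene was an estimate of the authors' software and was not tested.

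OPR1, a cytosolic relative of OPR3 that has little activity on the natural OPDA isomer, rose in P– shoots. It had 141.5 and 144.9 FPKM there, against 45.1 and 69.7 FPKM in P+ shoots, a change of 1.34 log2 units (SE 0.30, adjusted p = 0.0336, 2.53-fold). Both P– libraries were close together and well above the higher P+ library. In roots OPR1 was higher than in shoots and the media overlapped, with 286.4 and 313.4 FPKM under P– against 226.2 and 349.3 FPKM under P+ (log2 change 0.09). Root markers were higher in the same P– shoot libraries. Taking the root share off left the change at 1.24 log2 units (adjusted p = 0.0506). Its call was also lost without any 1 of the shoot libraries or any 1 of the P– root libraries (changes of 1.03 to 1.65, highest adjusted p = 0.252). OPR1 was lower in shoots than in roots by 1.06 log2 units under P– and by 2.31 under P+, both called, the first of them not without any 1 of the 4 P– libraries (highest adjusted p = 0.104).

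The vegetative storage protein genes took opposite places in the tissues. VSP2 had 181.7 and 135.1 FPKM in P– shoots, against 59.7 and 78.5 FPKM in P+ shoots. In roots the order turned, with 29.8 and 17.5 FPKM under P– against 59.2 and 49.4 FPKM under P+. No P– library overlapped a P+ library in either tissue. The change was 1.18 log2 units in shoots (SE 0.32, adjusted p = 0.0555) and -1.21 in roots (SE 0.32, adjusted p = 0.0728), and neither passed the adjusted threshold by itself. The difference between them did, at 2.39 log2 units (SE 0.45, adjusted p = 0.0295). Under P– VSP2 was higher in shoots than in roots by 2.72 log2 units (adjusted p = 1.89e-04), and under P+ the difference was 0.34 (SE 0.32, adjusted p = 0.412). Taking the root share off the shoot libraries left the shoot change at 1.18, since VSP2 was low in P– roots.

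VSP1 was mainly a root transcript in these libraries. It had 22.0 and 15.2 FPKM in P– shoots against 26.4 and 16.8 FPKM in P+ shoots, and 114.8 and 140.5 FPKM in P– roots against 142.4 and 171.4 FPKM in P+ roots. The shoot groups overlapped, the root groups were just apart, and neither log2 change passed the test (-0.20 in shoots, adjusted p = 0.737, and -0.30 in roots, adjusted p = 0.603). It was lower in shoots than in roots by 2.73 log2 units under P– (adjusted p = 1.47e-04) and by 2.83 under P+ (adjusted p = 9.04e-05). A long non-coding RNA assembled by the authors, XLOC_026371, lies on the opposite strand inside VSP1 (chr5:8508463-8508948, + strand) and was the only one of their lncRNAs within 2 kb of any of the 10 genes. Its poly(A)+ level was 21.7 and 2.83 FPKM in P– shoots and 15.0 and 27.3 FPKM in P+ shoots, and 191.8 and 153 FPKM in P– roots and 17.9 and 117.5 FPKM in P+ roots. The label of 1 replicate in each tissue names an unstranded setting, so VSP1 and its antisense RNA cannot be told apart there.

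**Figure D2:**
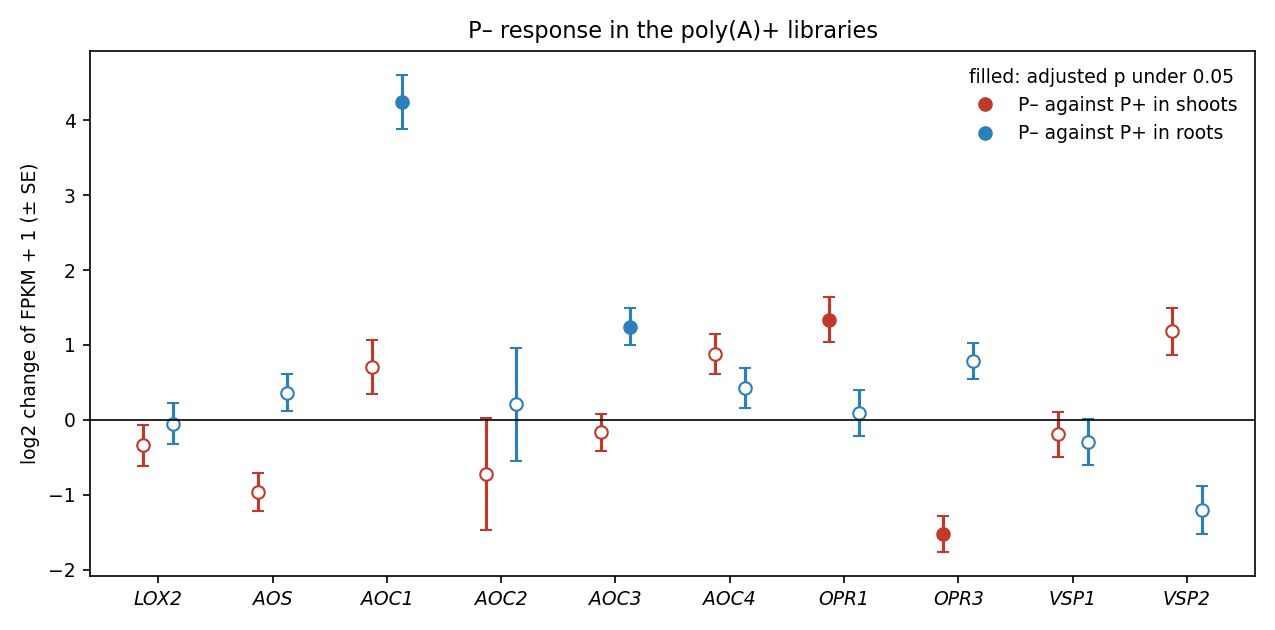
Change of each of the 10 genes in P– against P+ (log2 of FPKM + 1, bars are ± SE of the limma fit) in shoots (left point of each pair) and roots (right point); filled points have an adjusted p under 0.05. OPR1 (1.34) and OPR3 (-1.52) are filled in shoots and AOC1 (4.25) and AOC3 (1.24) in roots, and VSP2 lies at 1.18 in shoots and -1.21 in roots, unfilled in both.

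Over both tissues, 9 of 10 genes differed between shoots and roots under P+ (5 higher and 4 lower in shoots) beside 47.3% of all genes (17.5% higher, 29.8% lower). Under P–, 9 of 10 differed as well (5 higher, 4 lower) beside 43.6% of all genes (16.2% higher, 27.4% lower). LOX2, AOS, AOC1 and AOC2 were higher in shoots and AOC3, AOC4, OPR1 and VSP1 lower in shoots in both media. The gene without a call was VSP2 under P+ and OPR3 under P–. Whole organs were compared, so fewer cells that express a gene and less of its RNA per cell cannot be told apart in any of these values.

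Within families the mixture changed with tissue. VSP2 made up 89.2 and 89.9% of the summed VSP1 and VSP2 level in P– shoots, and 69.3 and 82.4% in P+ shoots. In roots it made up 20.6 and 11.1% under P– and 29.4 and 22.4% under P+. VSP2 was therefore the major VSP transcript in every shoot library and the minor one in every root library. Among the cyclases, AOC1 carried 41.1 and 44.7% of the summed AOC level in P– shoots and 29.4 and 23.7% in P+ shoots. AOC2 carried 36.1 and 36.1% in P– shoots and 59.7 and 61.2% in P+ shoots, so that AOC1 led in both P– shoot libraries and AOC2 in both P+ shoot libraries. The sum of the 4 genes was 225.9 and 276.1 FPKM in P– shoots against 288.2 and 212.8 FPKM in P+ shoots, which overlapped. In roots the sum was 229.5 and 186.9 FPKM under P– against 101.6 and 112.3 FPKM under P+. AOC3 and AOC4 together made up most of it. AOC3 held 43.7 and 54.3% under P– and 45.2 and 34.3% under P+, and AOC4 held 43.1 and 33.9% under P– and 54.2 and 55.6% under P+. AOC3 was thus the larger of them in both P– root libraries and AOC4 in both P+ root libraries. Shares of such similar genes rest on how reads were divided among them, and they were not tested. VSP1 and its antisense RNA also cannot be told apart in the libraries labelled unstranded, and the VSP shares carry that limit too.

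**Figure D3:**
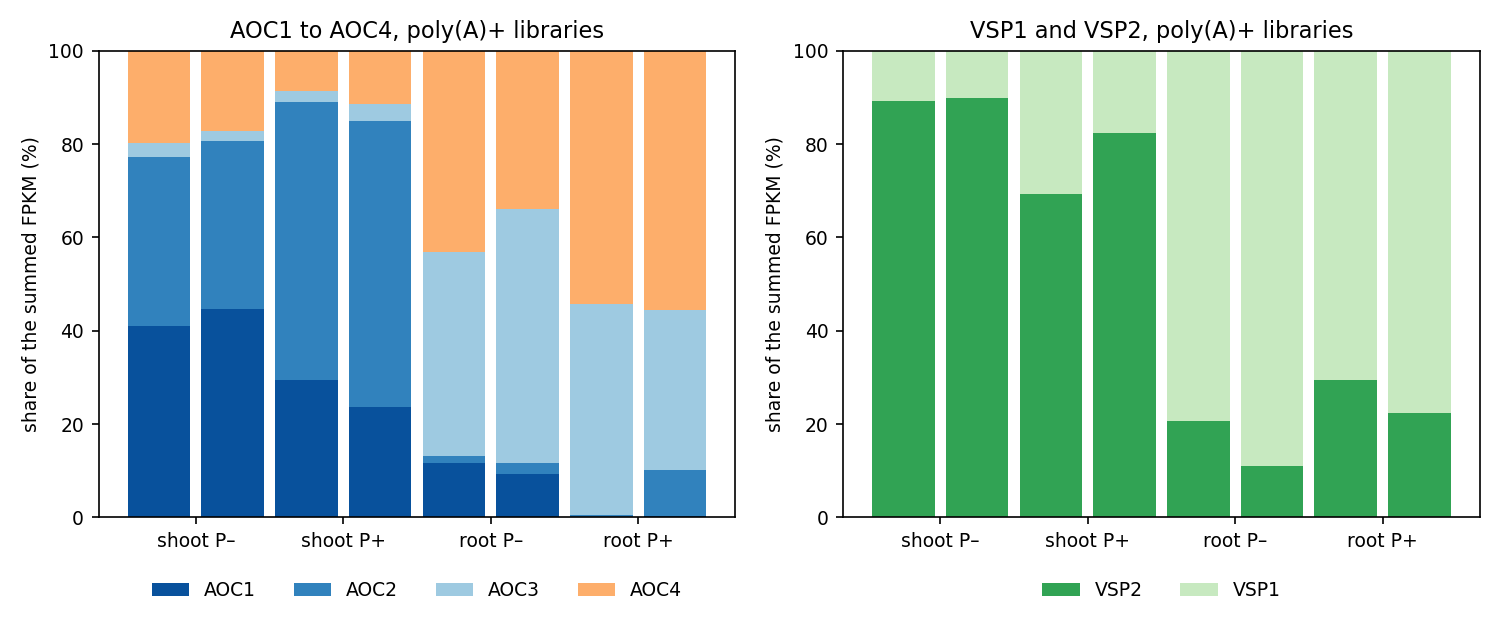
Share of VSP2 in the summed FPKM of VSP1 and VSP2, and shares of the 4 AOC genes in their summed FPKM (percent, both axes from 0), in each poly(A)+ library, with P– left of P+. VSP2 holds 69.3% or more in every shoot library and 29.4% or less in every root library.

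The same question was then put to the poly(A)– fraction, which holds RNA that oligo(dT) beads did not retain. In shoots, VSP2 was the 1 gene of 10 called, beside 1.06% of 19455 genes tested (0.745% higher, 0.314% lower). It had 273.2 and 253.1 FPKM in P– shoots, against 27.9 and 33.4 FPKM in P+ shoots, a rise of 3.06 log2 units (SE 0.26, adjusted p = 0.00804, 8.36-fold). Both P– libraries lay far above both P+ libraries. The call did not hold with shoots fitted alone (adjusted p = 0.10) or without any of 4 of the 8 libraries (highest adjusted p = 0.0651, changes of 2.94 to 3.19). In roots, VSP2 had 18.4 and 17.5 FPKM under P– and 27.1 and 31.5 FPKM under P+ (log2 change -0.67, adjusted p = 0.488).

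LOX2 in poly(A)– shoots had 112.6 and 114.3 FPKM under P– and 65.7 and 62.1 FPKM under P+, without overlap and with close replicates, yet its change of 0.82 log2 units (SE 0.53) did not pass the test (adjusted p = 0.493). OPR3 had 44.4 and 72.3 FPKM in P– shoots against 138.6 and 201.4 FPKM in P+ shoots (log2 change -1.54, adjusted p = 0.0865), and AOS had 47.8 and 29.0 FPKM against 88.2 and 91.9 FPKM (-1.25, adjusted p = 0.173). These 2 genes kept the order they had in the poly(A)+ fraction, and the same replicates of total RNA stand behind both fractions. VSP1 had 10.3 and 4.51 FPKM in P– shoots against 18.8 and 14.2 FPKM in P+ shoots (-1.14, adjusted p = 0.424). OPR1 had 71.6 and 108.6 FPKM in P– shoots and 51.5 and 70.6 FPKM in P+ shoots, just apart (0.54, adjusted p = 0.485).

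In poly(A)– roots, limma called 0 of the 10 genes beside 0.293% of all genes (0.226% higher, 0.0668% lower), and 2 of the 10 had an unadjusted p under 0.05, beside 8.70% of all genes. The thresholds of the study gave 1 gene of 10 in roots beside 7.53% of all genes, and 3 of 10 in shoots (AOS, OPR3 and VSP2) beside 13.6%. AOC1 was at 6.46 and 5.64 FPKM in P– roots against 0 and 1.07 FPKM in P+ roots (log2 change 2.29, unadjusted p = 0.0144, adjusted p = 0.336), and VSP2 was the other. AOC3 had 61.0 and 48.3 FPKM under P– and 24.9 and 29.6 FPKM under P+ (0.97, adjusted p = 0.597). AOC4 was listed at 0 in 1 P+ shoot library and at 11.6 FPKM in the other, and AOC2 at 0 in 1 library of each root group, so changes and ratios that use these values rest on 1 library of a pair. The replicates of shoots in this fraction had the widest spread of all groups.

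**Figure D4:**
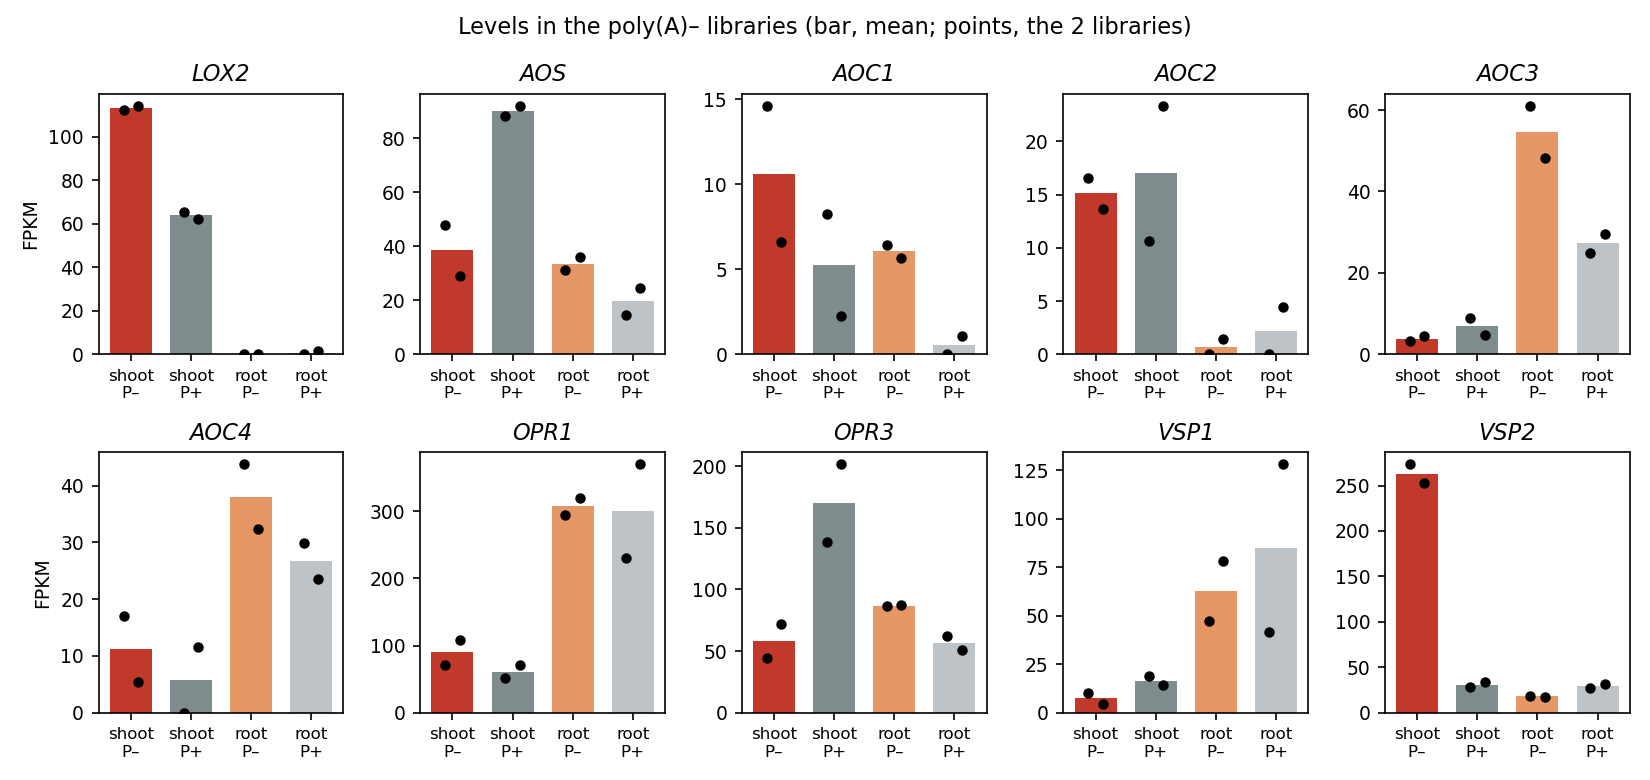
FPKM of the 10 genes in the 8 poly(A)– libraries, with points for libraries beside their group means, and P– left of P+ in each tissue. VSP2 lies at 253.1 and 273.2 FPKM in P– shoots and between 17.5 and 33.4 FPKM in every other group.

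Whether the P– response differed between the fractions was asked in a joint fit of 19085 genes that was added after the data were seen. The fit took the 16 libraries as independent, with 1 spread per gene for both fractions. Both fractions came from the same RNA samples, and its SE and p leave that pairing out. Called were 0.189% of genes in shoots and 0.00% in roots, and none of the 10. VSP2 came closest in shoots, where its poly(A)– response exceeded its poly(A)+ response by 1.88 log2 units (SE 0.41, unadjusted p = 6.62e-04, adjusted p = 0.122), and LOX2 followed at 1.16 (adjusted p = 0.607). The ratio of mean poly(A)+ over mean poly(A)– FPKM describes the same libraries without a test, and each fraction was scaled to its own total. That ratio for VSP2 was 0.602 in P– shoots and 2.25 in P+ shoots, and for LOX2 0.352 in P– shoots and 0.796 in P+ shoots. VSP2 and LOX2 thus lay on the poly(A)– side of the median ratio of all genes in P– shoots, which was 1.18. OPR3, at 1.14, lay just on that side as well. LOX2 lay on it in P+ shoots too, where the median of all genes was 1.23, and VSP2 did not.

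The cyclases were not alike in this ratio. AOC1 had ratios of 10.2 in P– shoots, 12.8 in P+ shoots, 3.66 in P– roots and 0.390 in P+ roots, where it was near or at 0 in both fractions. AOC2 had ratios of 6.0, 8.90, 5.57 and 2.59 in the same groups, and AOC4 of 4.09, 4.21, 2.14 and 2.20. AOC3 lay lower than AOC2 and AOC4 in all 4 groups, between 1.06 and 1.85. Leaving out 1 library moved several of these values widely. AOC1 then ranged over 7.40 to 16.4 in P– shoots and 8.15 to 30.2 in P+ shoots. AOC2 ranged over 6.49 to 14.2 in P+ shoots, 2.78 to 6.12 in P– roots and 0.259 to 4.91 in P+ roots. AOC4 ranged over 2.70 to 8.40 in P– shoots and 2.11 to 4.22 in P+ shoots. For AOC2 in both root groups and AOC4 in P+ shoots, only 1 poly(A)– library was above 0. Without that library no ratio could be formed, so these ranges have no upper limit. Of the 10 genes, 4 reached a ratio of 2, at which the study classed a transcript as poly(A)+, in P– shoots (23.5% of all genes), 4 in P+ shoots (25.3%), 4 in P– roots (20.5%) and 2 in P+ roots (19.7%). AOS, OPR1 and OPR3 remained between 0.836 and 1.59 in all 4 groups.

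Other steps of the pathway were described from lists of genes grouped by function, in the same poly(A)+ fit. The lists were drawn up with earlier results of these data known. Calls of list genes were not repeated with a library left out. Of all genes, 5.09% were called higher and 3.26% lower in P– shoots, and 2.47% higher and 1.98% lower in P– roots. Among the other lipoxygenases, LOX3 and LOX4, 13-lipoxygenases that are together needed for male fertility, fell in P– shoots, 2 of 5 genes called. LOX3 had 2.36 and 2.61 FPKM in P– shoots against 16.5 and 18.0 FPKM in P+ shoots (log2 change -2.39, SE 0.29, adjusted p = 0.00368). LOX4 had 1.32 and 1.15 FPKM against 10.1 and 10.2 FPKM (-2.32, SE 0.33, adjusted p = 0.00619). In roots limma called 0 of the 5, and 2 of them had an unadjusted p under 0.05, beside 22.0% of all genes. The median of the list was -0.21 in shoots and 0.55 in roots, and the response of LOX3 and LOX4 differed between tissues (adjusted p = 0.0142 and 0.0140).

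Of 8 tested genes of linolenic acid supply, the plastid lipase PLIP2 and the desaturase FAD8 fell in P– shoots and 0 rose. Of all genes, 3.26% were lower there. PLIP2 had 32.4 and 34.1 FPKM in P– shoots against 171 and 158 FPKM in P+ shoots (-2.27, adjusted p = 0.00371). FAD8 had 11.2 and 7.60 FPKM against 41.4 and 36.3 FPKM (-1.96, adjusted p = 0.0345). Of 10 genes of OPDA transport and beta-oxidation, 2 rose in P– shoots (5.09% of all genes) and 0 fell. They were OPR2, the overlapping neighbour of OPR1 (17.3 and 23.2 FPKM against 5.42 and 8.30 FPKM, log2 change 1.45, adjusted p = 0.0284), and the acyl-CoA oxidase ACX1 (80.8 and 93.1 FPKM against 37.4 and 44.6 FPKM, 1.07, adjusted p = 0.0351). Both were higher in roots than in shoots, and root markers rose in the same P– shoot libraries, whose part in these values was not tested. In roots the peroxisomal transporter PXA1 rose, with 29.9 and 28.2 FPKM under P– against 12.2 and 13.9 FPKM under P+ (1.1 log2 units, adjusted p = 0.0411).

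Genes that act on the finished hormone followed. Of 9 tested genes of conjugation and turnover, 4 fell in P– shoots (3.26% of all genes) and 0 rose. CYP94C1 and CYP94B1, which oxidize the active conjugate, had 0.553 and 1.14 FPKM, and 3.26 and 1.12 FPKM, in P– shoots. In P+ shoots they had 14.2 and 15.0 FPKM, and 25.8 and 18.3 FPKM. The changes were -3.09 (adjusted p = 0.00243) and -2.92 log2 units (adjusted p = 0.0209), and the amidohydrolase ILL6 (-1.33) and the jasmonate oxidase JOX2 (-1.54) were the others. In roots JOX3 rose, with 25.4 and 5.56 FPKM under P– against 0.181 and 0.138 FPKM under P+ (3.51, adjusted p = 0.0148), its P– replicates lying far apart.

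Of the 13 JAZ repressor genes, which are themselves induced by jasmonate, 6 fell in P– shoots (3.26% of all genes) and 0 rose. Their median was -1.98 log2 units. JAZ7 had 0 and 2.14 FPKM in P– shoots against 46.8 and 44.5 FPKM in P+ shoots (adjusted p = 0.00184). JAZ10 had 2.37 and 4.47 FPKM against 23.8 and 26.2 FPKM (-2.59, SE 0.32, adjusted p = 0.00373). JAZ8 fell by 2.31 log2 units, and JAZ5, JAZ9 and JAZ13 were the others called. In roots the median was 0.87, and JAZ10 rose, with 36.9 and 42.5 FPKM under P– against 3.19 and 4.34 FPKM under P+ (3.10, SE 0.32, adjusted p = 0.00187). The 2 responses of JAZ10 differed by -5.69 log2 units (SE 0.45, adjusted p = 0.00188).

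Perception genes were described next. MYC4, which encodes a transcription factor freed from JAZ repression, rose in P– shoots, 1 of 6 genes, with 12.7 and 13.4 FPKM against 5.17 and 3.58 FPKM in P+ shoots (1.40, adjusted p = 0.0459). At an unadjusted p under 0.05, 4 of the 6 were higher in P– shoots and 0 lower, beside 25.6% of all genes in either direction. The list median there was 0.70 log2 units, against 0.14 for all genes. NINJA had a log2 change of 0.76 (adjusted p = 0.0722) and TPL of 0.60 (adjusted p = 0.174) in shoots. COI1 had a change of 0.64 (adjusted p = 0.190) and MYC2 of -0.60 (adjusted p = 0.421). Limma called 0 of the 6 genes in roots, with 0 at an unadjusted p under 0.05. Of 6 tested jasmonate-responsive genes other than the VSP pair, 2 rose in P– shoots, beside 5.09% of all genes. These were the defensin PDF1.2a (8.94 and 8.60 FPKM against 1.59 and 1.42 FPKM, 1.96, adjusted p = 0.0200) and the cystine lyase CORI3 (63.3 and 35.9 FPKM against 17.7 and 11.9 FPKM, 1.65, adjusted p = 0.0418). In roots the tyrosine aminotransferase TAT3 rose, at 58.5 and 52.4 FPKM under P– against 1.02 and 0.285 FPKM under P+ (5.13, SE 0.32, adjusted p = 1.55e-04). Between this list and the JAZ list alone, the genes called in P– shoots thus went opposite ways, with PDF1.2a and CORI3 higher and the called JAZ genes lower.

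Acid phosphatase genes of the VSP family, 8 in number, had 0 calls by limma in either tissue, with 4 at an unadjusted p under 0.05 in shoots (25.6% of all genes) and 2 in roots (22.0%). The smallest p in both tissues was that of AT2G38600, listed at 0 in both P– shoot libraries and at 1.34 and 1.87 FPKM in P+ shoots, and at 4.21 and 9.73 FPKM in P– roots against 21.1 and 18.1 FPKM in P+ roots (log2 change -1.46, adjusted p = 0.0762). The list's median was 0.39 in shoots and -0.20 in roots. Touch and wound genes were set beside these lists because jasmonate genes also answer to handling. Of 8 genes, 4 fell in P– shoots (3.26% of all genes) and 0 rose, and 2 rose in P– roots (2.47%) and 0 fell. TCH4, a cell wall enzyme gene induced by touch, had 377.1 and 432.4 FPKM in P– shoots against 2192 and 1753 FPKM in P+ shoots (-2.28, SE 0.23, adjusted p = 0.00171). In roots TCH4 had 37.9 and 34.7 FPKM under P– against 11.3 and 11.8 FPKM under P+ (1.57, SE 0.23, adjusted p = 0.00913). WRKY40, an early wound and defence regulator, had 3.51 and 6.31 FPKM in P– shoots against 33.4 and 42.1 FPKM in P+ shoots (-2.75, adjusted p = 0.00438). The lower levels of OPR3 and of the JAZ genes in P– shoots thus stood beside lower touch and wound transcripts in the same libraries, and the part of handling in either was not tested.

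**Figure D5:**
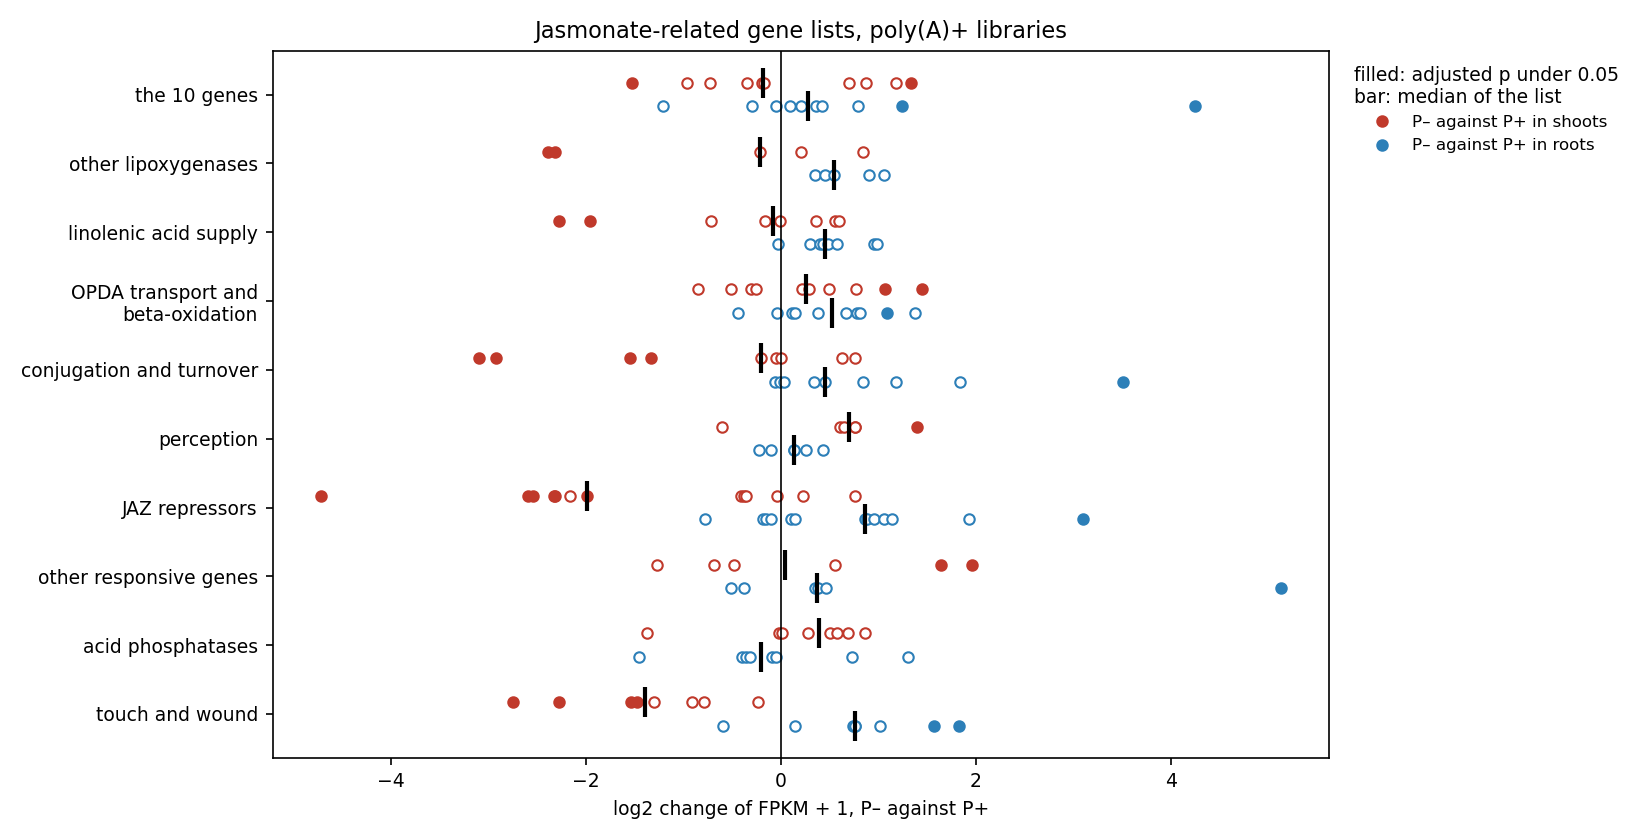
Change in P– against P+ (log2 of FPKM + 1, poly(A)+ libraries) of the genes of each list, shoots above roots in each row; filled points have an adjusted p under 0.05 and bars are list medians. In shoots the medians of the JAZ list (-1.98) and of the touch and wound list (-1.39) lie below 0, and in roots they lie at 0.87 and 0.76.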

How the data were processed

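Poly(A)+ and poly(A)– RNA of shoots and roots was sequenced as paired reads from strand-marking libraries. The authors aligned reads to TAIR10 with TopHat2, assembled transcripts with Cufflinks, dropped reads of the organelle genomes and estimated FPKM with eXpress; tools and build are from the processing notes and the study's methods, and versions are not given in the sources used here. The deposited FPKM of coding transcripts were summed per gene here. The deposited coordinates of lncRNAs (unit: other) were compared with RefSeq TAIR10.1, whose chromosome lengths held every one of them. Tables of the authors' own fold changes and DESeq2 p-values, with 48 further columns of per-sample values, were not used. The deposited tables hold no read counts, and the read totals that the study lists for its libraries were not used here.

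The log2 of FPKM + 1 was fitted with limma 3.58.1 (R 4.3.3, trended prior) per fraction over the 8 libraries as 4 groups of 2, for genes with a mean of at least 1 FPKM. Tests are two-sided with Benjamini-Hochberg adjustment over all genes of the fit. The script was tested on simulated data with known changes. Tables, sequences and figures were made with Python 3.11.15, pandas 2.3.3, biopython 1.88 and matplotlib 3.10.9. Motifs were searched as CACGTG and GNATATNC on both strands.

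The 10 genes and the gene lists were chosen with earlier results of these data known. All 10 are named in all groups. From each other list, the 3 genes with the smallest p in P– shoots and in P– roots were open to naming, and JOX2, MYC2, JAZ9 and JAZ13 were named after their values were seen. Root columns carry the numbers 2 and 3, which the labels do not tie to replicates 1 and 2, so root libraries were treated as unnumbered replicates of their group. Shoot numbers pair samples by number, with no stated shared batch, and the labels give the unstranded setting for replicate 2 of shoots. The settings tried were 0.1 or 5 FPKM added, no filter or a mean of at least 5 FPKM, libraries rescaled to a common median ratio, the highest transcript of a gene, each tissue alone, a replicate block in shoots, the study's thresholds, and each library left out. Others were added after seeing the data, namely the root share taken off and the joint fit of both fractions.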

Additional observations from a re-analysis of the deposited data

Results flagged for a closer look

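The response to P– differed between shoots and roots for 3 of the 10 genes in the test of the difference itself (limma, poly(A)+ fraction, adjusted p). The shoot response minus the root response was -3.55 log2 units for AOC1 (adjusted p = 0.0143), -2.31 for OPR3 (adjusted p = 0.0143) and 2.39 for VSP2 (adjusted p = 0.0295). AOC1 changed by 0.71 in shoots and 4.25 in roots, OPR3 by -1.52 and 0.79, and VSP2 by 1.18 and -1.21. Each of these 3 calls was lost without any 1 of the 4 shoot libraries and without 1 or both of the P– root libraries, with adjusted p of up to 0.0988 for AOC1, 0.0981 for OPR3 and 0.160 for VSP2.

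XLOC_026371, the lncRNA assembled on the strand opposite to VSP1, stands out because it lies outside the coding table and reached a mean of 172.4 FPKM in P– roots, above VSP1 itself (127.7 FPKM). Its P+ root replicates were 17.9 and 117.5 FPKM. In the poly(A)– fraction it was at 0.239 and 94.6 FPKM in P– roots and at 0.00439 and 112.4 FPKM in P+ roots, so that 1 library of each pair carried nearly all of it. The labels give an unstranded setting for 1 root replicate, the columns are not tied to replicates, and sense and antisense reads cannot be told apart there.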

How the results depend on the processing

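With 2 libraries a group, few calls of a P– response held under every setting. Calls of shoots against roots under P+ all held without any 1 library. The root rise of AOC1 held without any 1 library (adjusted p of at most 0.0128). Genes called in P– shoots, poly(A)+, numbered 2 of 10 and became 4 with 5 FPKM added, 4 with a mean of at least 5 FPKM, 4 with each tissue fitted alone and 4 with a replicate block in shoots alone (AOS, AOC4, OPR1 and OPR3). Those in P– roots numbered 2 and became 0 with each tissue alone. Different responses between tissues numbered 3 and became 6 by the study's thresholds. In the poly(A)– fraction, 1 gene called in P– shoots became 0 with each tissue alone, 0 with the replicate block (VSP2, adjusted p = 0.380) and 3 by the study's thresholds, and 0 in P– roots became 1 by those thresholds. Genes at a fraction ratio of 2 or above in P– roots numbered 4 and became 2 after rescaling. Leaving out each library gave 0 to 5 in P– shoots, 1 to 4 in P– roots, 0 to 6 for different responses, 9 to 9 and 6 to 9 for shoots against roots under P+ and P–, 0 to 1 and 0 to 0 in P– shoots and P– roots of the poly(A)– fraction, and 4 to 5, 3 to 4, 3 to 5 and 1 to 5 at a ratio of 2 or above in P– shoots, P+ shoots, P– roots and P+ roots.

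Direction reversed outside that test for AOC2 in P– roots (-0.066 with 5 FPKM added), OPR1 in P– roots (-0.032 after rescaling), OPR3 in shoots against roots under P– (0.50 with the highest transcript) and VSP1 in the difference of responses (-0.30 with the root share taken off). None of these 4 changes had passed the test. Leaving out a library reversed VSP1 in P– shoots (-0.51 to 0.12), LOX2 (-0.16 to 0.056), AOC2 (-1.26 to 1.67) and OPR1 (-0.22 to 0.40) in P– roots, AOC2 (-2.39 to 0.53) and VSP1 (-0.21 to 0.41) in the difference of responses, AOC2 (-0.60 to 0.46) and AOC4 (-0.23 to 3.43) in poly(A)– P– shoots, and LOX2 (-1.26 to 0.10), AOC2 (-1.80 to 0.64), OPR1 (-0.27 to 0.41) and VSP1 (-1.06 to 0.54) in poly(A)– P– roots. The cause was not tested in any case.

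Rescaling moved the median of all genes in P– shoots to 0.00 log2 units, from 0.14 as deposited. Shoot replicates of 1 number deviated together with a correlation of 0.225 in the poly(A)+ and 0.0321 in the poly(A)– fraction. The 2 pairs share a number and the strand setting of their labels. No block could be set in roots.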

Other observations

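Genes whose poly(A)+ pattern over the 8 libraries was most like that of 3 of the genes were found by Pearson's r of log2 FPKM + 1, as a description without a test, since all 8 points share the same tissues and media. The 5 genes closest to LOX2 were PSAH2, a photosystem I subunit, YAB5, a leaf polarity gene, AT3G19850, AT5G07020 and VAR2, a plastid protease, each at 0.999. PSAH2 averaged 1554 FPKM in P– shoots, 2255 FPKM in P+ shoots, 7.90 FPKM in P– roots and 8.77 FPKM in P+ roots. AOC2 was most like PP2C74 (0.996) and the catalase gene CAT1 (0.996). For VSP2 the closest were AT3G18870 (0.974), AT5G40060 (0.969) and AT1G07040 (0.968), with ATAN11 (0.961) and PDV2 (0.959) next. AT3G18870 averaged 16.4 FPKM in P– shoots, 8.84 FPKM in P+ shoots, 1.65 FPKM in P– roots and 4.52 FPKM in P+ roots. None of the other 9 genes was among the 5 closest to VSP2.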
